A study of Homo sapiens with 24 samples.

Results

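Batch 6 was 1 of 6 differentiations of the human embryonic stem cell line H9WAO9 towards vagal sensory neurons, and its 4 RNA-seq libraries of 24 were set against the 12 libraries of batches 3, 4 and 5. The batch names came from the sample labels. The contrast itself was chosen by gene counts of these libraries, so every level difference below is a description without a test, and batch, not library, was the unit. All cultures carried the genotype WT and were the same line; they passed through vagal neural crest cells and floating spheroids before neuronal differentiation and 2 to 3 weeks of maturation. In each batch 1 culture received vehicle (bovine serum albumin in saline), 1 received TGF-β at 2 ng/ml, 1 received IL-4 at 10 ng/ml with IL-13 at 3 ng/ml, each for 5 days, and 1 received IL-6, whose dose the labels did not give. RNA was taken from whole cultures, in which neurons grow beside other cells, so fewer cells of a type and less RNA per cell cannot be told apart. Batch 6 was a single differentiation, and the labels gave no day, passage or operator for any batch.

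Neural crest is the transient population at the border of the neural tube from which peripheral neurons, glia, pigment cells and connective tissue arise. Neighbouring dorsal neural tube gives roof plate and choroid plexus, the epithelium that secretes cerebrospinal fluid and makes transthyretin. Ependymal and choroid plexus epithelia carry motile cilia, built on an axoneme of microtubule doublets and dynein arms under the control of the transcription factor FOXJ1.

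Total counts ran from 33911834 to 39425309 per library in batch 6 and from 33342682 to 39817784 in batches 3 to 5, so depth did not separate them. The 100 most abundant genes took 15.2 to 15.9% of counts in batch 6 and 15.4 to 17% in the others. On the first principal component of log2(CPM + 0.5), CPM being counts scaled to library size, which held 39.9% of the variance of the 16 libraries, batch 6 scored 43.3 to 65.8, batch 5 scored -12.6 to 19.2, and batches 3 and 4 scored -56.7 to -9.6. Batch 5 was thus the nearest to batch 6. The vehicle and IL-6 libraries of batch 4 lay apart from the other 2 of that batch, at -41.8 and -22.8 against 17.2 and 15.9 on the second component. With both left out, a choice made after seeing the data, 1019 genes differed in place of the 990 described next.

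**Figure D1:**
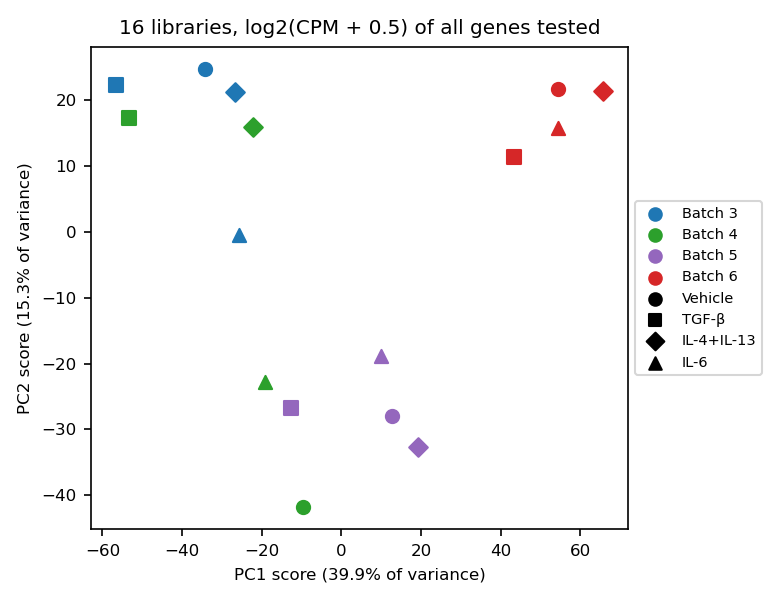
Each point is 1 of 16 libraries at its scores on the first (39.9% of variance) and second (15.3%) principal components of log2(CPM + 0.5), coloured by batch and shaped by treatment. The 4 libraries of batch 6 sit at 43.3 to 65.8 on the first component, to the right of all 12 others.

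A gene was called when its fitted log2 fold change in batch 6 lay beyond 1 in the same direction against each of batches 3, 4 and 5, and its 4 levels in batch 6 did not overlap the 12 others. Of 28443 genes tested, 990 (3.48%) were called, 465 (1.63%) higher and 525 (1.85%) lower, and the median log2 fold change of all genes was -0.02. By the same fold and overlap rule between single batches, batch 6 differed from batch 3 in 11.5% of genes, from batch 4 in 9.43% and from batch 5 in 6.76%. Batch 5 differed from batch 3 in 4.36% and from batch 4 in 2.18%, and batch 4 differed from batch 3 in 0.907%. The 3 pairs that held batch 6 were thus the 3 largest of the 6. Without batch 5 as a comparator 2017 genes were called, 799 higher and 1218 lower, since the nearest batch no longer had to differ. Of the 990, 360 were transcripts without a gene name and 73 were entries under a symbol with more than 1 entry. Autosome by autosome, the median log2 fold change over 12158 genes of single entry with at least 100 counts per library on the higher side lay between -0.04 and 0.08, so no autosome was shifted as a whole.

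Genes of motile cilia were the largest named group that was higher in batch 6. The families were collected by gene symbol after their values had been seen, namely axonemal dyneins (DNAH, DNAI and DNAL), cilia and flagella associated proteins (CFAP), radial spoke heads (RSPH), tektins (TEKT), dynein regulatory complex (DRC), dynein assembly factors (DNAAF) and outer dynein arm docking complex (ODAD). Of 95 members tested 55 were called higher and 0 lower, with a median log2 fold change of 1.45, beside 1.63% of all genes called higher and a median of -0.02. Against single batches the medians were 1.49, 1.67 and 1.21 for batches 3, 4 and 5. In the vehicle libraries alone the median was 1.15. Their summed level was 1450 to 1780 CPM in batch 6 and 688 to 965 CPM in the other 12 libraries, with no overlap. They made up 55 of the 465 genes called higher (11.8%).

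Within the families, all 5 DNAI and all 3 DRC genes were called higher, as were 30 of 46 CFAP, 7 of 13 DNAH, 3 of 10 DNAAF, 3 of 7 RSPH, 2 of 4 ODAD and 2 of 5 TEKT genes, and none of 2 DNAL genes. The members that were not called included CFAP20, CFAP36 and DNAL1, with log2 fold changes of -0.14, 0.11 and 0.14. The 5 members below 0 were CFAP97D1, TEKT5, DNAH8, DNAAF9 and CFAP20, from -0.61 to -0.14. The lowest of them, CFAP97D1, had a mean of 10 counts in batch 6 and 14.8 in batches 3 to 5.

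The regulators of the ciliated state were followed as a list of 12, also drawn up after their values had been seen. Their median log2 fold change was 1.19, or 0.82 in the vehicle libraries alone. Batch 6 had 101, 94.3, 138 and 85.9 CPM of FOXJ1, the factor that switches on the motile cilia programme, in the order vehicle, TGF-β, IL-4+IL-13, IL-6. The 12 other libraries ranged from 6.56 to 43.6 CPM with a median of 20.6. Every batch 6 library thus lay above every other, with a log2 fold change of 2.48 ± 0.51 (SD over the 3 comparisons with batches 3, 4 and 5, as for every ± on a fold change below). MYB, which acts in multiciliated precursors, was at 2.7, 2.1, 4.53 and 2.9 CPM in the same order against 0.181 to 1.44 CPM (log2 fold change 2.38 ± 0.7). TP73 and FOXN4, both transcription factors of multiciliated cells, were also called, at 1.53 ± 0.4 and 2.2 ± 0.56. The 8 members not called all had positive values, from 0.37 for E2F4 to 2.61 for MCIDAS, the initiator of centriole amplification. MCIDAS reached only 0.875 to 3.84 CPM in batch 6 and overlapped the others, which ran from 0 to 1.13 CPM.

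TEKT1, a tektin of the axonemal doublets, was at 10.7, 13, 19.9 and 12.9 CPM in batch 6 (vehicle, TGF-β, IL-4+IL-13, IL-6). In the other libraries it ran from 0.242 to 5.24 CPM, and the log2 fold change was 3.01 ± 0.66. CFAP126, needed for ciliary positioning, was at 45.4, 50, 58.8 and 47.4 CPM against 6.35 to 21 CPM (2.21 ± 0.42). For both genes the lowest batch 6 library was above the highest of the 12 others.

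To show the DNA in front of these genes, the 250 bases before the annotated start were searched on both strands for short motifs. The letters GTTGCC (or GGCAAC on the other strand) are part of the X-box bound by RFX factors, which work with FOXJ1 at cilia genes. They occurred before 23 of 44 called axonemal genes with a promoter in the RefSeq table (52.3%), before 11 of 34 that were tested and not called (32.4%), and before 2756 of all 27305 promoters (10.1%). GTTGCC was 1 of 7 motifs counted, and the longer GTTGCCA did not separate called members (27.3%) from the rest (29.4%), with 3.49% in all promoters. The forkhead letters TGTTTAC occurred before 3 of the 44 (6.82%), before 0 of the 34 and before 2.98% of all promoters. A match is a run of letters, not a bound site. Of the called genes of largest fold with a match outside chromosomes 8 and X, 5 are shown because they were among the highest in batch 6 relative to the others, with the match in capitals, read 5′ to 3′ on the gene's strand (RefSeq, GRCh38.p14).
TEKT1, chr17:6831759-6831788, minus strand, 41 bases before the start: cctctttgccctGGCAACgcgtcacttgtt
CFAP141, chr1:154206437-154206466, minus strand, 115 bases before the start: caaggtttctggGGCAACaggccaggtggc
DNAI2, chr17:74274045-74274074, plus strand, 171 bases before the start: gataagcgccttGGCAACgcccctacaaat
CFAP100, chr3:126394875-126394904, plus strand, 16 bases before the start: gcctgaagaatgGTTGCCttggagacgtaa
CFAP97D2, chr13:114179071-114179100, plus strand, 168 bases before the start: tggcatcaaaatGGCAACactaaactatcc

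**Figure D2:**
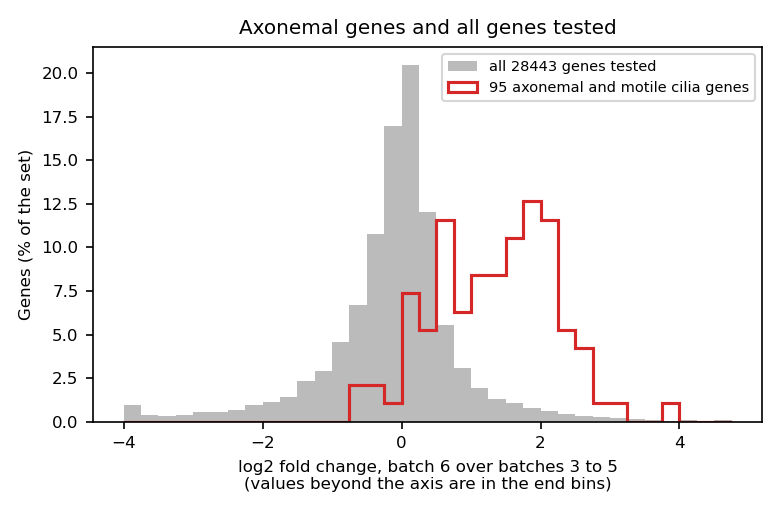
The histogram gives the share of genes (%) in bins of log2 fold change of batch 6 over batches 3 to 5, for 95 axonemal and motile cilia genes (red line) and all 28443 genes tested (grey). The red line is shifted to the right, with a median of 1.45 beside -0.02 for all genes.

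All 11 listed genes of the roof plate and choroid plexus had positive log2 fold changes, with a median of 0.91. Of them 2 were called higher and 0 lower, beside 1.63% of all genes called higher, and 9 were not called. Their summed level was 8420 to 9850 CPM in batch 6 and 701 to 7500 CPM in the others. KCNJ13, the potassium channel of the choroid plexus apical membrane, was at 38.8, 38.5, 50.5 and 36.8 CPM in batch 6 and at 1.18 to 11.2 CPM in the 12 others (3.12 ± 0.54). The gene lies within GIGYF2, and how reads in overlapping genes were counted is not given in the sources used here. RSPO3, a secreted enhancer of WNT signalling, was the other gene called (1.3 ± 0.24).

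TTR, which encodes the transport protein transthyretin, made up most of this sum. It was at 8840, 7440, 8070 and 7440 CPM in batch 6, at 316 to 1840 CPM in batch 3, at 499 to 2330 CPM in batch 4 and at 2580 to 6720 CPM in batch 5. Batch 6 lay above all 12, but the log2 fold change against batch 5 was 0.78, under the limit of 1, so TTR was not called (2.14 ± 1.18). SLC4A5, a bicarbonate transporter of the choroid plexus, was at 213 to 324 CPM against 17.1 to 120 CPM (2.24 ± 0.5). TRPM3, a calcium-permeable channel, was at 218 to 324 CPM against 44.5 to 152 CPM (1.54 ± 0.43).

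Melanocyte genes had the highest median of all lists, 1.67, with 3 of 6 called higher and 0 lower, beside 1.63% of all genes called higher. PMEL, the fibril protein of pigment granules, was at 418, 405, 323 and 382 CPM in batch 6 against 46.2 to 110 CPM in the others, with no overlap (2.48 ± 0.37). TYRP1, an enzyme of melanin synthesis, was at 98.6, 61.8, 113 and 83 CPM against 2.9 to 19.5 CPM (3.71 ± 0.72). TYR, the rate-limiting enzyme of the pathway, was at 152 to 189 CPM against 15.1 to 101 CPM (1.9 ± 0.69).

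The remaining 3 pigment genes did not meet the rule. MITF, the master regulator of pigment cells, was above all 12 libraries at 22.2 to 35 CPM but reached only 0.86 against batch 5. DCT and MLANA were low throughout, at medians of 3.23 and 0.271 CPM in batch 6 and 2.42 and 0.121 CPM in the others. Pigmented epithelium of the eye also makes PMEL, TYR and TYRP1, so the list does not name a cell type here.

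The neural crest list of 9 had 1 gene called higher and 0 lower, beside 1.63% and 1.85% of all genes, and a median of 0.17. SOX10, the crest and glial factor, was called but barely expressed, with a mean of 23 counts per library in batch 6 and 8.33 in batches 3 to 5 (0.528 to 0.671 CPM against 0.0769 to 0.39 CPM, 1.41 ± 0.1). SOX10 overlaps POLR2F. The Schwann and satellite glia list had no other call among its 12 genes, with a median of -0.47.

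Sensory neuron genes were lower in batch 6. Of 18 listed genes 6 were called lower and 0 higher, 17 had negative values, and the median log2 fold change was -1.3, beside 1.85% of all genes called lower. The medians against batches 3, 4 and 5 were -1.37, -1.59 and -1.1. Their summed level was 692 to 873 CPM in batch 6 and 1420 to 2000 CPM in the others.

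The 6 were RET, DRGX, POU4F1, PRPH, P2RX3 and PIEZO2. POU4F1, the homeodomain factor that marks sensory neurons, was at 7.41, 11.4, 8.73 and 11.2 CPM (vehicle, TGF-β, IL-4+IL-13, IL-6), and at 36.6 to 55.7 CPM in batches 3 and 4. Batch 5 was in between at 21.5 to 24 CPM, and the log2 fold change was -1.9 ± 0.6. RET, the receptor for the GDNF family of growth factors, showed the same order, at 31.8 to 43.9 CPM in batch 6, 91.8 to 125 CPM in batch 5 and 145 to 276 CPM in batches 3 and 4 (-2.3 ± 0.69).

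DRGX, a partner of POU4F1 in nociceptor development, differed by -2.01 ± 0.64. PRPH, the intermediate filament peripherin, had its smallest spread between comparators, -1.57 ± 0.04. The ion channels P2RX3, gated by ATP, and PIEZO2, gated by touch and stretch, were lower by similar amounts, -1.5 ± 0.29 and -1.27 ± 0.29. P2RX3 was at 32.2 to 55.6 CPM against 93 to 162 CPM and PIEZO2 at 60.1 to 76 CPM against 118 to 232 CPM, without overlap.

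Not all sensory genes followed. TRPV1, the capsaicin receptor, was at 10.7 to 12.1 CPM in batch 6 and 8.77 to 15 CPM in the others (-0.02 ± 0.12). The neurotrophin receptors NTRK2 and NTRK3 were at -0.46 and -0.13 and were not called. SCN10A, a sodium channel of nociceptors, was hardly counted in the 16 libraries, with a highest value of 0.756 CPM. Of 13 TRP channel genes 2 were called higher, TRPM3 and TRPC6 (1.54 and 2.14), and 3 lower, beside 1.63% and 1.85% of all genes. The median was -0.12, and 9 of 13 were negative. Their summed level was higher in batch 6, at 288 to 401 CPM against 137 to 239 CPM. TRPM3 alone made up most of the batch 6 sum, at 218 to 324 CPM against 44.5 to 152 CPM. The 3 lower were TRPM8, the cold receptor (-2.73 ± 1.24), TRPV2 (-2.39 ± 0.89) and TRPM2 (-1.5). TRPM8 was at 0.402 to 0.917 CPM against 1.03 to 9.45 CPM.

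General neuronal genes differed less. None of 12 pan-neuronal genes was called, and all 12 had negative values with a median of -0.58. TUBB3, the neuronal tubulin, was at 434 to 576 CPM in batch 6 and 725 to 1040 CPM in the others (-0.75 ± 0.16). UCHL1, also known as PGP9.5, was at 517 to 573 CPM against 558 to 845 CPM, where the groups overlapped (-0.37 ± 0.2). Of 24 synaptic vesicle genes, all with negative values and a median of -0.68, 2 were called lower, beside 1.85% of all genes. These were SYT2 and CPLX1, a calcium sensor and a regulator of vesicle fusion (-1.88 ± 0.4 and -1.81 ± 0.41).

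Among 18 neurofilament and axonal cytoskeleton genes, 3 were called lower, beside 1.85% of all genes, and the median was -0.55. NEFM, the medium neurofilament, was at 334, 350, 276 and 323 CPM in batch 6 and at 668 to 2010 CPM in the others (-1.97 ± 0.72). NEFH, the heavy neurofilament of large myelinated fibres, was at 14.5 to 24 CPM against 53.7 to 175 CPM (-2.27 ± 0.63). The third was PRPH. In contrast, STMN4 and TUBB2B, both microtubule genes, were at 0.02 and -0.23.

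**Figure D3:**
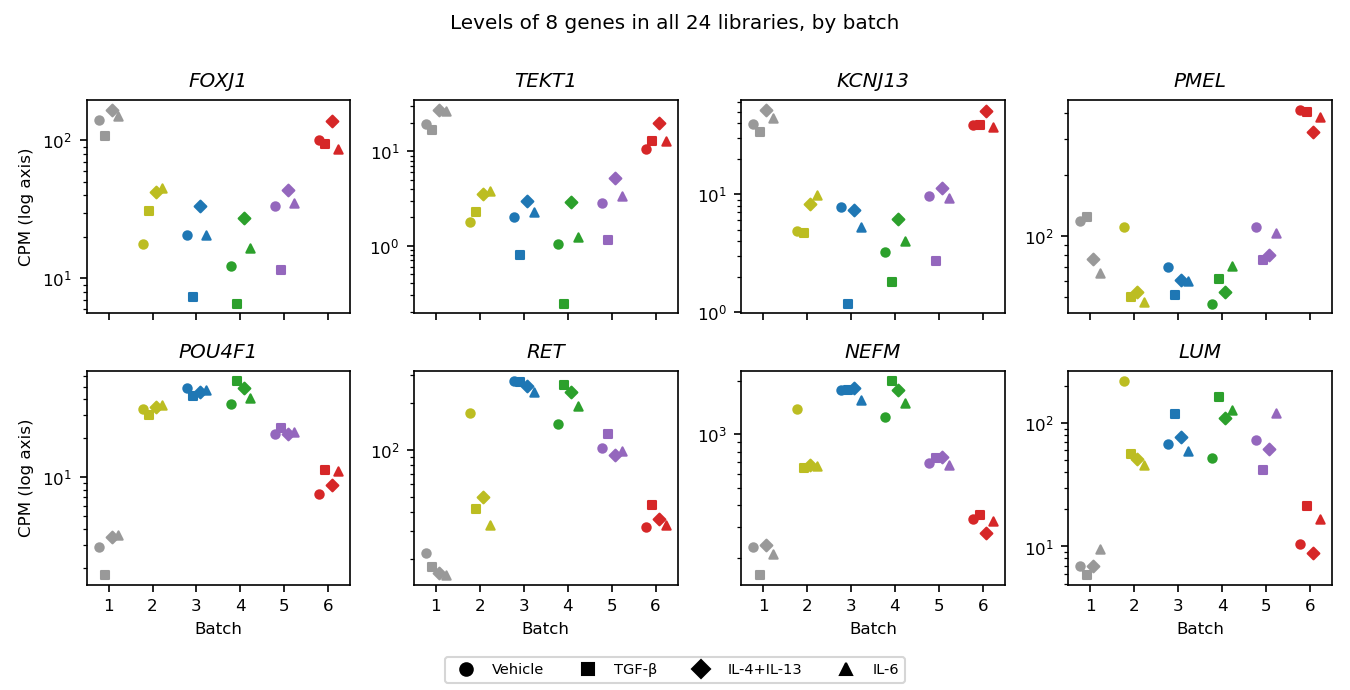
Levels of 8 genes (CPM, log axis) in all 24 libraries by batch, 1 point per library, with the treatment as the marker shape. FOXJ1, TEKT1, KCNJ13 and PMEL are higher in batch 6 than in any library of batches 3 to 5, and POU4F1, RET, NEFM and LUM lower.

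Of 10 autonomic or cholinergic genes 2 were called lower, beside 1.85% of all genes, 4 were positive and the median was -0.46. The called genes were SLC18A3 and CHAT (-1.76 ± 0.37 and -2.24 ± 0.38). They encode the vesicular acetylcholine transporter and the enzyme that makes acetylcholine, share 1 locus, and cannot be counted as independent. Of 16 neuropeptide genes 2 were called lower, and the median was -1.31. CARTPT, which encodes the CART peptide, was at 79.1 to 129 CPM against 184 to 488 CPM (-1.58 ± 0.54). Of 14 sodium channel genes 2 were called lower, among them SCN7A (-1.24 ± 0.15).

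Lists of other neuron types went in different directions. Of 6 motor neuron genes 1, the SLC18A3 already given, was called lower, beside 1.85% of all genes, and 5 were negative. Their median was -0.81 (-1.98 in the vehicle libraries alone), and their summed level was 22.8 to 33.2 CPM against 33.9 to 50.2 CPM. The lists of vagal placode or nodose neurons (7 genes), central glutamatergic neurons (11) and GABAergic neurons (8) had no gene called and medians of 0.45, 0.35 and 0.63. For the first 2 the median against batch 3 was over 1 while that against batch 5 was 0.01 and -0.04. In the vehicle libraries alone the vagal placode median was -0.34. PHOX2A, a factor of visceral neurons, was at 1.25 ± 0.3.

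HOX genes, which mark position along the body axis, varied between all batches. The median of HOX groups 4 and 5 in batch 6 was 1.83 above batch 3 and lay 1.44 below batch 5 (-1.44), with 0 of 7 called. HOX groups 6 to 8 had a median of -1.45, with -0.32, -2.06 and -3.04 against batches 3, 4 and 5 and 0 of 6 called. The median was -4.14 in the vehicle libraries alone. The summed level of groups 6 to 8 was only 0.413 to 1.91 CPM in batch 6, overlapping 0.27 to 24.4 CPM in the others. These folds thus rest on few counts. Batch 6 was thus within the range of the other batches for the first of these groups.

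Connective tissue genes formed the second group that was lower. Of 13 fibroblast or mesenchyme genes 4 were called lower and 0 higher, beside 1.85% of all genes called lower. The median was -1.31, or -0.77 in the vehicle libraries alone, and the summed level was 3520 to 5750 CPM in batch 6 against 6500 to 14600 CPM. LUM, the collagen-binding proteoglycan lumican, was at 10.4, 21.3, 8.81 and 16.7 CPM against 41.4 to 162 CPM (-2.65 ± 0.28). DCN, decorin, differed by -1.96 ± 0.19, and PRRX1, a transcription factor of mesenchyme, by -1.76 ± 0.31. The fourth was COL3A1, which has 2 entries in the table.

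The matrix lists shared members with this list and are set beside the same 1.85% of all genes called lower. Of 10 small leucine-rich proteoglycans 4 were called lower (median -1.5), of 16 fibrillar and network collagens 4 (median -1.13), and of 13 collagen VI and FACIT collagens 3 (median -0.39). COL12A1 and COL6A3 were at 40.2 to 56 and 35 to 125 CPM against 121 to 474 and 145 to 480 CPM (-2.23 ± 0.42 and -1.99 ± 0.27). COL1A1, the main chain of type I collagen, was at 1130, 2040, 712 and 1240 CPM and overlapped the others, at 1690 to 5160 CPM (-1.25 ± 0.15), and was not called. PDGFRA and PDGFRB, receptors of mesenchymal cells, were both at 0.05. Smooth muscle or myofibroblast genes had a median of 0.23 with 0 of 8 called, and ACTA2, smooth muscle actin, was at 0.48 ± 0.04.

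**Figure D4:**
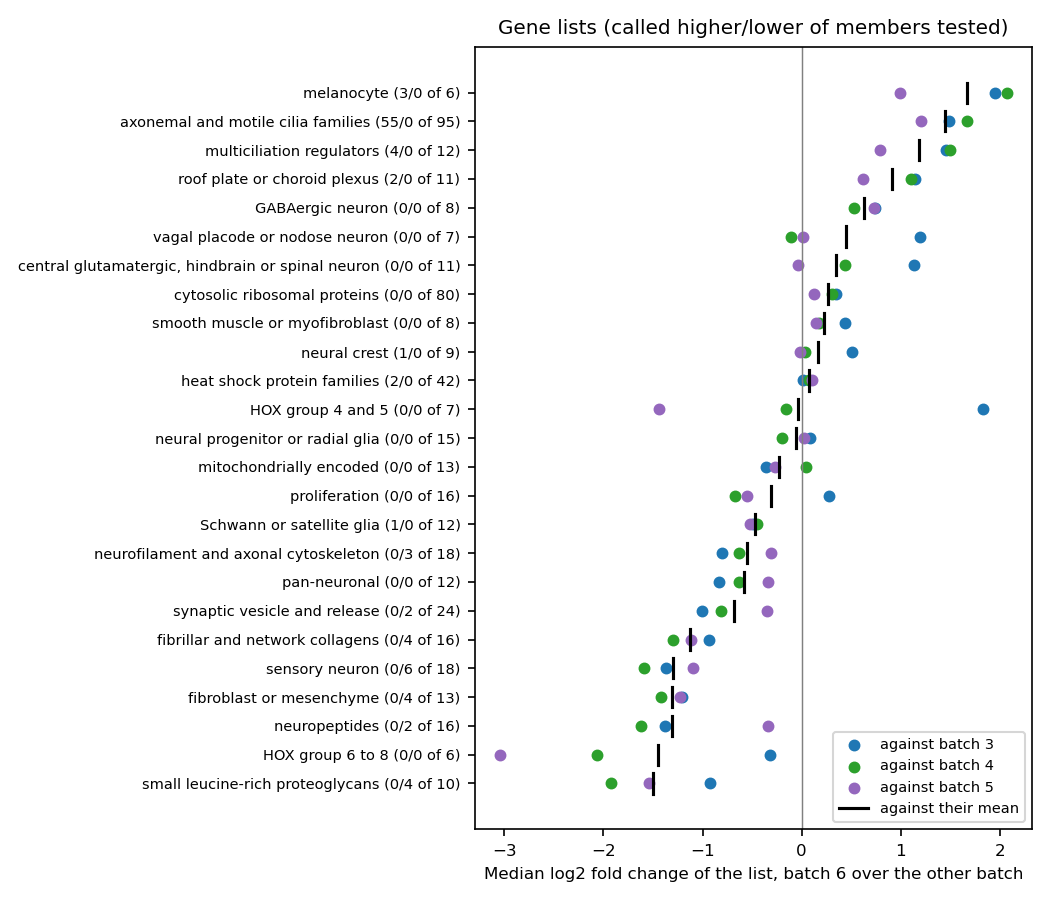
For 25 gene lists, points give the median log2 fold change of batch 6 over batch 3, 4 or 5 and the black bar that over their mean; counts of members called higher and lower of those tested stand beside each name. Cilia, melanocyte and choroid plexus lists lie right of 0 for all 3 comparators, and sensory neuron, fibroblast and proteoglycan lists left of it.

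The largest single folds by the naming rule were partly outside these groups. HSPA6, a strictly inducible heat shock protein, was at 13.3, 29.6, 39.7 and 54 CPM in batch 6 and 0.664 to 1.69 CPM in the others, the largest rise (4.72 ± 0.13). The 4 libraries of batch 6 differed among themselves by more than the 12 others did. Over 42 heat shock genes the median was 0.07, and only HSPA6 and DNAJB13, a radial spoke component of sperm and cilia, were called. DNAJB1 was at 0.94 and HSPA8 at -0.2, neither called. The first of 5 entries each of HSPA1A and HSPA1B were at 0.58 and 0.95 and were not called.

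The other 9 were FAM216B, TYRP1, STOML3, MMP21, IL5RA, PGM5, TDGF1, ANKRD66 and KCNJ13, with log2 fold changes from 4.03 down to 3.12. STOML3 encodes a stomatin-like membrane protein, MMP21 a metalloproteinase, IL5RA the interleukin-5 receptor and PGM5 a phosphoglucomutase relative of cell adhesions. TDGF1, a co-receptor for Nodal, was the 1 called gene of 6 tested pluripotency genes, at 4.27 to 7.87 CPM against 0.155 to 1.32 CPM (3.19 ± 0.78). Of all genes 1.63% were called higher. Of the 6 pluripotency genes 5 were negative, and their median was -0.44. POU5F1, the defining pluripotency factor, had in the first of its 7 entries a mean of 0.75 counts in batch 6 and 1.08 in the others, and NANOG was counted 0 times in all 4 libraries of batch 6. FOXA1, a pioneer factor of endoderm and floor plate, was at 5.83 to 8.33 CPM against 0.518 to 1.63 CPM (2.75 ± 0.29), while FOXA2 was at 0 in 3 of 4 libraries.

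Blood cell markers gave mixed values. PTPRC, which encodes CD45 and has 2 entries, was called higher in its first entry at 28.1 to 35.9 CPM against 4.15 to 13.5 CPM (2.1 ± 0.5). LAPTM5, a lysosomal protein of the same cells, was called lower (-2.16 ± 0.45), CSF1R was at -0.33, and AIF1, TYROBP and CD3E did not reach 10 counts in the 16 libraries. Of 5 immune genes tested, 1 was thus higher and 1 lower, beside 1.63% and 1.85% of all genes. EPCAM, the epithelial adhesion molecule, was at -0.38 ± 0.26 and MKI67, the proliferation antigen, at -1.07 ± 0.77, neither called.

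KCNJ8 and ABCC9, the 2 subunits of an ATP-sensitive potassium channel, were higher together (2.04 ± 0.36 and 1.98 ± 0.37). They are neighbours on chromosome 12, and were the 2 of 6 pericyte genes called higher, beside 1.63% of all genes. The other 4 pericyte genes were not called, and the list median was 0.11. Its summed level overlapped, at 355 to 370 CPM in batch 6 against 256 to 399 CPM. Further called members of lists follow, each with the count called in its direction of those tested and the list median. Of all genes, 1.63% were called higher and 1.85% lower. Higher were NR4A2, an immediate-early receptor (1.82 ± 0.22, 1 of 12, median 0.11), and ADAMTS1, a matrix protease (1.68 ± 0.57, 1 of 20, median -0.76). NOG, a BMP antagonist (1.56 ± 0.44, 1 of 19, median -0.18), and IFIT2, an interferon-stimulated gene (1.44 ± 0.27, 1 of 16, median -0.16), were also higher. So were SOX6, a cartilage factor (1.32 ± 0.01, 1 of 10, median 0.13), and ACTA1, skeletal muscle actin (1.55 ± 0.43, 1 of 9, median -0.15). Lower were IGFBP4 (-1.31 ± 0.33, 1 of 11, median -0.42) and SOCS1 (-1.36 ± 0.28, 1 of 12, median 0.1).

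The 10 largest falls by the rule were CER1, HR, SRGN, CMKLR1, PGF, PIRT, PLEKHD1, TMOD1, KASH5 and TRPM8. CER1, a secreted antagonist of Nodal and BMP, was at 0.267, 0.819, 0.111 and 0.376 CPM in batch 6 and 1.32 to 16.6 CPM in the others (-3.94 ± 1.2). Batch 5 was again the nearest at 1.32 to 3.34 CPM. PIRT, a regulator of TRPV1 and TRPM8 in sensory neurons, was also lower (-2.84 ± 0.62). PGF is a growth factor of the VEGF family (-2.88 ± 0.88), TMOD1 caps actin filaments (-2.8 ± 0.65), and SRGN is the proteoglycan of secretory granules (-3.16 ± 0.32). NGFR, the p75 neurotrophin receptor, was outside the rule and was chosen after its values were seen, at 10.4 to 16.4 CPM against 32.2 to 105 CPM (-2.41 ± 0.78).

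Ranked by the change in CPM, also after the values were seen, the called genes that gained most were SLC7A6 and EGFL6. SLC7A6, an amino acid transporter, was at 807 to 909 CPM against 241 to 452 CPM, and EGFL6, a secreted matrix protein, at 561 to 871 CPM against 158 to 441 CPM. Next came PMEL, SLC5A3, which takes up myo-inositol, and SLC4A5. NEFM lost most, 1040 CPM on average, followed by COL5A2 and PRPH.

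Most lists related to culture state had no called genes. The exceptions were the immediate-early genes, with 1 of 12 called higher (NR4A2), and the heat shock genes given above, with 2 of 42. Of all genes, 1.63% were called higher. None of the 16 proliferation, 12 unfolded protein and amino acid stress, 12 hypoxia and glycolysis, or 13 mitochondrially encoded genes was called, with medians of -0.31, 0.25, -0.56 and -0.23. Of the hypoxia and glycolysis genes 10 of 12 were negative, with medians of -0.41, -0.83 and -0.42 against batches 3, 4 and 5. The proliferation median was -0.88 in the vehicle libraries alone. The 80 cytosolic ribosomal protein genes tested had a median of 0.27 with 0 called, and 76 of 80 were above 0. RNA integrity values were not analysed here.

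Batches 1 and 2 were not part of the contrast and are given for comparison. The summed axonemal level was 1850 to 2340 CPM in batch 1 and 796 to 964 CPM in batch 2, beside 1450 to 1780 CPM in batch 6. That of the roof plate or choroid plexus list was 17000 to 24600 CPM in batch 1 and 1340 to 1870 CPM in batch 2. The sensory neuron sum was 574 to 901 CPM in batch 1 and 1170 to 1470 CPM in batch 2, and batch 6 had 692 to 873 CPM. Batch 6 lay between batches 1 and 2 for the first 2 sums, and its range for the third lay within that of batch 1. The melanocyte sum was at 181 to 321 CPM in batch 1 and 95.7 to 175 CPM in batch 2 against 646 to 736 CPM in batch 6. HSPA6 did not exceed 6.23 CPM in either batch.

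Whether batch 6 answered the cytokines differently was tested as the interaction of each treatment with batch 6, with batch as a block (edgeR quasi-likelihood test, Benjamini-Hochberg adjustment over 28443 genes). The 3 tests share the vehicle libraries and so are not independent, and batch 6 gives 1 library per treatment. At an adjusted p under 0.05, 9 genes passed for TGF-β (0.0316%), 8 for IL-6 (0.0281%) and 6 for the IL-4+IL-13 pair (0.0211%). Before adjustment 1243, 793 and 1047 genes had p below 0.05.

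These calls were 14 entries of the table, of which 11 stood under a symbol with more than 1 entry and 1 had no gene name. How the counting divided reads between entries of 1 symbol is not given in the sources used here. PLCL2, a phospholipase-like signalling protein, passed in all 3 tests. Its first entry was at 2.77 CPM in the batch 6 vehicle library and 7.2 to 11.7 CPM in the 15 other libraries, whereas its 2 entries summed to 18 to 24.3 CPM in all 16. MANBAL behaved likewise, with its second entry at 0.511 CPM in that library and a sum of 33.8 to 49.2 CPM. With the entries of each symbol summed, an alternative added after seeing the data, 1 gene passed for TGF-β and 1 for IL-6, each time the transcript without a name, and 0 passed for the IL-4+IL-13 pair. In that edgeR fit 949 genes had an unadjusted p below 0.05 for the pair, and DESeq2, which was run on unsummed entries only, called 27.

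Of the 14 entries, 2 were single-entry genes of the naming rule. CACNG5, an auxiliary subunit of AMPA receptors and calcium channels, was at 12.2 CPM with vehicle and 33.2 CPM with TGF-β in batch 6. With IL-6 it was at 21.9 CPM in that batch. Outside the contrast it went with TGF-β from 12.2 to 8.31 CPM in batch 1 and from 82.4 to 63.1 CPM in batch 2. In batches 3, 4 and 5 it went with TGF-β from 81.6 to 95.2, from 91 to 98.5 and from 62.6 to 83.3 CPM. The log2 responses were 1.45 in batch 6 and 0.25 in the others, a difference of 1.2 ± 0.15 (SE; edgeR adjusted p = 0.0291). The call was lost on leaving out batch 3, 4 or 5 (adjusted p = 0.0604 to 0.581) or on summing entries (0.0705).

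SNX22, a sorting nexin, was at 10.1 CPM with vehicle and 3.51 CPM with IL-6 in batch 6, whereas batches 3, 4 and 5 had 14.2 to 15.2 CPM with vehicle and 16 to 19.8 CPM with IL-6. The difference in log2 response was -1.78 ± 0.23 (SE; edgeR adjusted p = 0.035), also lost on leaving out any of batches 3 to 5 (adjusted p = 0.066 to 0.505) or on summing entries (0.0736). Outside the contrast SNX22 was low in the IL-6 libraries of batches 1 and 2 (3.02 and 3.86 CPM) and in the TGF-β library of batch 2 (4.08 CPM).

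**Figure D5:**
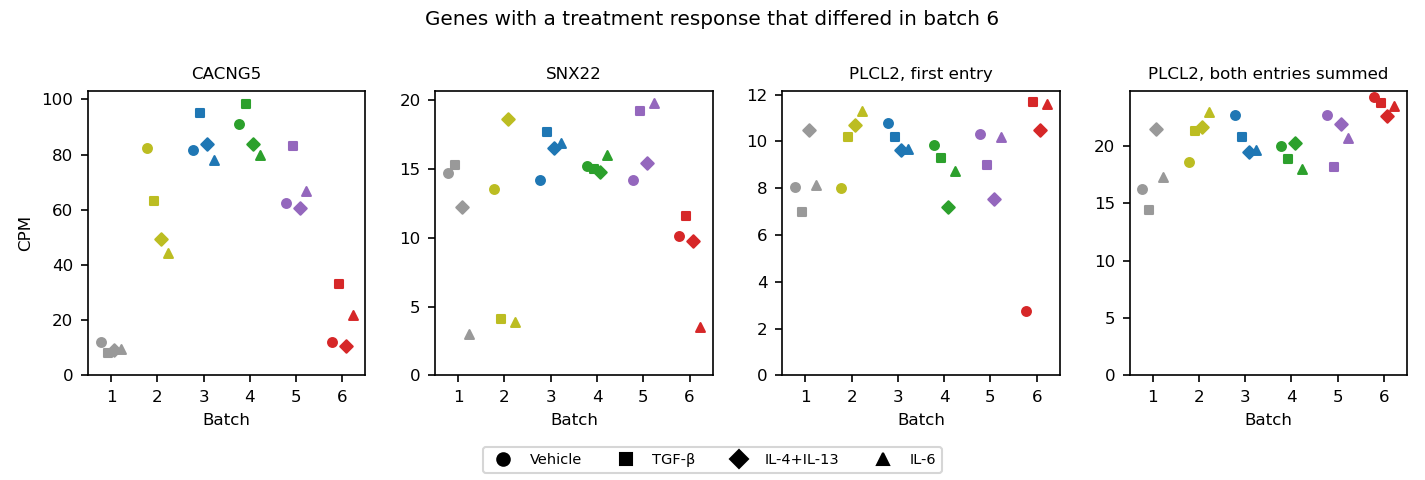
CPM of CACNG5, SNX22 and PLCL2 (first entry, and both entries summed) in all 24 libraries by batch, 1 point per library, with the treatment as the marker shape and the axis from 0. The vehicle library of batch 6 is low for the first PLCL2 entry, at 2.77 CPM, and not for the sum, at 24.3 CPM.

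Established targets of the cytokines showed no difference in response that passed. CISH, a feedback inhibitor of JAK-STAT signalling, went from 1.31 to 26.9 CPM with IL-4+IL-13 in batch 6, and the difference in log2 response from batches 3 to 5 was -0.2 ± 0.55 (SE; edgeR adjusted p = 1). ALOX15, the 15-lipoxygenase induced by these cytokines, was counted 0 times in the batch 6 vehicle library and reached 375 CPM with IL-4+IL-13. In batches 3 to 5 it was at 0.281 to 0.538 CPM with vehicle and 406 to 436 CPM with the cytokines. The fitted difference in log2 response was 6.77 ± 2.35 (SE) and did not pass, and it rests on the vehicle count of 0. With 0.1 CPM added to each level, the log2 ratio was 11.87 in batch 6 and 9.38 to 10.16 in batches 3 to 5. CCL26, the chemokine eotaxin-3, reached 10.8 CPM in batch 6 and 29 to 56.4 CPM in the others (difference -2.16 ± 1.36, SE; edgeR adjusted p = 1).

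SMAD7, a target of TGF-β, had a log2 response to it of 0.37 in batch 6 beside 0.26 in batches 3 to 5 (edgeR adjusted p = 1). SOCS3, a target of IL-6, had a response to IL-6 of -0.06 beside 0.07, and the difference did not pass. Its log2 ratios of IL-6 to vehicle were 0.25, -0.15 and 0.15 in batches 3, 4 and 5. It thus showed no steady response to IL-6, and says little about a difference in response.

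Some genes that set batch 6 apart in level were also followed under treatment, after their values had been seen. Differences in log2 response to TGF-β varied, from 0.16 ± 0.33 (SE) for PMEL to 1.79 ± 0.49 for KCNJ13. They were 0.57 ± 0.48 for TYRP1, 0.72 ± 0.33 for CFAP126, 1.13 ± 0.43 for TYR and 1.77 ± 0.46 for TEKT1. None of these passed. With TGF-β, FOXJ1 went from 20.5 to 7.3 CPM in batch 3, from 12.3 to 6.56 CPM in batch 4 and from 33.5 to 11.6 CPM in batch 5, but from 101 to 94.3 CPM in batch 6. The log2 responses were -1.33 and -0.1, and the difference of 1.23 ± 0.25 (SE) did not pass (edgeR adjusted p = 0.459, unadjusted p = 0.000565). SLC4A5 and KCNJ13 had TGF-β responses of 0.05 and -0.01 in batch 6 and -1.49 and -1.8 in batches 3 to 5 (edgeR adjusted p = 0.21 and 0.918). TTR had -0.25 and -1.57 (edgeR adjusted p = 1).

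Over the 95 axonemal genes the median log2 ratio of TGF-β to vehicle, with 0.1 CPM added to each level, was -0.43, -0.31 and -0.35 in batches 3, 4 and 5 and 0.05 in batch 6. It was 0 over all genes tested in each batch. In batches 3 to 5, 73 to 75 of the 95 were below 0, and in batch 6 36 were. None of the 95 passed the interaction test, and 17 had an unadjusted p under 0.05, beside 1243 of all 28443 genes. With IL-4+IL-13 the same genes had medians of 0.17, 0.29 and 0.1 in batches 3, 4 and 5 and 0.35 in batch 6, where 90 of 95 were above 0. With IL-6 the medians were 0.05 to 0.06 in all 4 batches. For TGF-β the melanocyte list had medians of -1.29, -0.56 and -1.33 in batches 3, 4 and 5 and -0.21 in batch 6. The sensory neuron list had 0.14, 0.7 and 0.24 and, in batch 6, 0.2. The pan-neuronal list had 0.1, 0.42 and 0.17 and, in batch 6, 0.12.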

How the data were processed

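Poly(A) RNA of 24 cultures was sequenced. Per the labels, the authors trimmed reads with Trimmomatic 0.30, aligned them to GRCh38.p14 and counted reads per gene; the aligner, counter and strand setting are not given in the sources used here. The deposited values are raw counts for 36468 entries, of which 13161 are unnamed transcripts and 4886 share a symbol. Genes with at least 10 counts over the 16 libraries were kept (28443). Counts were scaled to CPM by TMM over all 24 libraries and fitted in edgeR 4.0.16 with batch and treatment. Differences between batches carry no test. The interaction of each treatment with batch 6 was tested by edgeR's quasi-likelihood test with batch as a block. Batch numbers pair the libraries by label: deviations from treatment means correlated at a median of 0.574 within batches (lowest 0.033) and -0.248 between them, and all 16 libraries matched their own batch best. No 2 libraries were duplicates (lowest chi-square per degree of freedom 11.3). Where nothing says that cultures of a batch were separate, p-values measure only the spread between these libraries.

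Members of the gene lists and the contrast were chosen with earlier results of these data known. Named genes are the 10 largest called rises and falls, up to 3 called genes per list and direction, and a fixed set of markers, with single-entry symbols and at least 100 counts per library on the higher side; for each treatment response, the 5 largest differences each way and 6 fixed targets. Other genes named are list members or were chosen after their values were seen. The scripts were tested on simulated data. Alternatives were other scaling, filters, fold limits, DESeq2 1.42.0, no block, and leaving out a batch. Some named genes and 1 sequence are not reported here.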

Additional observations from a re-analysis of the deposited data

Results flagged for a closer look

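In 71 named genes the 4 libraries of batch 6, which carry 4 different treatments, were searched for a library far from the rest by Dixon's ratio. The search flagged 5 genes, where chance flags about 1 in 20, and 4 of them are given here. KCNJ13 was at 50.5 CPM in the IL-4+IL-13 library, POU5F1 at 0.0805 CPM in the IL-6 library, COL4A4 at 2.28 CPM in the IL-4+IL-13 library, and CMKLR1 at 0.583 CPM in the vehicle library. POU5F1 was at 0 in the other 3 libraries, where any count in the fourth meets the criterion, so its flag says nothing. Treatment and library cannot be told apart in these values.

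The interaction test called CACNG5 with TGF-β (difference in log2 response 1.2) and SNX22 with IL-6 (-1.78). Each treatment is 1 library in batch 6, so its response there has no spread of its own. Over the alternatives the difference was 1.13 to 1.28 for CACNG5 and -1.88 to -1.68 for SNX22. Both genes were still called with DESeq2's Wald test, DESeq2 size factors, no filter and a mean of at least 10 counts. Both calls were lost on leaving out any of batches 3 to 5 (edgeR adjusted p = 0.0604 to 0.581 for CACNG5 and 0.066 to 0.505 for SNX22), on summing entries of a symbol (0.0705 and 0.0736) and without the block (1 and 0.068).

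Single entries of PLCL2 (2.19 with TGF-β, 2.27 with IL-4+IL-13 and 2.17 with IL-6) and MANBAL (5.13, 5.03 and 5.2 in that order) were also called. Both are symbols with 2 entries, and in the batch 6 vehicle library those of PLCL2 were at 2.77 and 21.6 CPM and those of MANBAL at 38.6 and 0.511 CPM. Their sums there were 24.3 and 39.1 CPM, beside 18 to 23.8 and 33.8 to 49.2 CPM in the 15 other libraries, and with entries summed neither gene passed, so no difference in response is shown for them.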

How the results depend on the processing

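The count of 990 genes that differed in level was between 878 and 991 under DESeq2 size factors, TMM over the 16 libraries, no filter, a mean of at least 10 counts, and the first entry of each symbol. It was 217 with a log2 limit of 2, 2835 by the fold alone without the rule on overlap, and 2550 with the vehicle libraries only, of which 702 were among the 990. On leaving out batch 3, 4 or 5 it was 1144 to 2017. The 62 named genes that were called kept their direction in all 310 alternative values, and of 290 alternative list medians 44 moved by more than their spread and 18, from 13 lists, changed sign.

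The treatment interactions depended on the method. Without the replicate block, 6 genes passed for TGF-β in place of 9, 4 for the IL-4+IL-13 pair in place of 6, and 3 for IL-6 in place of 8. CACNG5 and SNX22 then had edgeR adjusted p-values of 1 and 0.068. DESeq2's Wald test called 39, 27 and 22 in that order. Leaving out a batch gave 3 to 18, 2 to 10 and 3 to 5. With entries of a symbol summed, chosen after seeing the data, there were 1, 0 and 1 (949 before adjustment where 0). The cause was not tested. Batch 6 is 1 differentiation, so no spread between differentiations of its kind can be had.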
